A study of Homo sapiens with 3 samples.

Results

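HCT116 is an established human colorectal carcinoma cell line that grows as an attached epithelial culture. Its baseline transcriptome was read from 1 array, labelled NC for the scrambled negative control, out of 3 arrays in the series. The NC cells had been transfected with a control siRNA by means of Lipofectamine 3000, and the other 2 arrays, labelled SMARCA4-S12 and SMARCA4-S23, held cells given siRNA against SMARCA4, the ATPase of the SWI/SNF chromatin remodeling complex. All 3 conditions shared the line, McCoy's 5A medium with fetal bovine serum and the transfection reagent, so the NC cells are transfected cells and not untouched ones. The NC array carries SMARCA4 in its title and PRMT1, a histone arginine methyltransferase, in its treatment field, and the study's design text lists a negative control under PRMT1 only, so which target the control was paired with cannot be told from the array. No knockdown comparison was made.

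Spots for transcripts were used, apart from 83 outlier spots, repeated spots of a probe were averaged, and each gene name was represented by its brightest probe, which gave 43316 gene names from 58200 probes. Of these names, 17450 were protein-coding symbols of RefSeq. The lists described below hold 983 different genes, of which 970 had a name on the array. The extraction software calls a spot well above background when it clears a test against the local background, and a gene was called detected when its brightest probe did so. By this rule 20506 gene names were detected, which is 47.3% of all names and 71.9% of the RefSeq protein-coding names. A list of well-studied genes is read against the second share, since such genes are nearly all protein-coding.

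HCT116 is known as a mismatch repair-deficient line with mutant CTNNB1 and PIK3CA. The normal colonic crypt is a single layer of epithelium, in which stem cells at the base give rise to absorptive colonocytes, mucus-filled goblet cells, hormone-secreting cells and tuft cells. Its identity is set by transcription factors such as CDX2 and HNF4A, and carcinoma lines keep variable parts of that program. An array reads RNA, so a mutation, a missing protein or a methylated promoter is not measured by the values that follow.

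The processed signal is the brightness of a spot after background subtraction, in arbitrary units. Signals on the NC array ran from the background to 299123 units, and the detected genes spanned a 16940-fold range. The median signal was 405 for a detected gene and 3.83 for a gene not well above background, against 3.67 for the 308 negative control spots. Near the threshold, the lowest detected gene had a signal of 17.7 and the highest gene without detection one of 22.4. The ranges thus overlapped, and the reason was not tested. Saturation was called for 0 spots. The array had no replicate, so no test was possible. The error model of the extraction gave a median error of 10.0% of the signal for genes of 100 units or more, and of 16.1% for detected genes under 50 units. This error is small beside the spread between probes of the same gene. Among 4759 genes with at least 2 detected probes the brightest probe was a median of 5.11-fold brighter than the dimmest, and the percentile of the signal among all gene names had a median SD of 7.32 points between probes. Only detected probes entered this spread. Of 6993 genes with more than 1 probe and at least 1 detected, 2901 also had a probe that was not detected. A signal therefore places a spot on the array and is no measure of transcript number, and percentiles closer than 7.32 points are not read as an order.

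The distribution of signals is shown for protein-coding and for other names, with the negative control spots.

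Genes of odorant receptors, which are read by sensory neurons of the nose, gave a measure of how permissive the call was. Of 382 olfactory receptor names 41 were detected. Their median signal was 3.78, and 95% of them lay at or under 46.4 units. Detected genes dimmer than 46.4 units are described as dim below. The highest negative control spot, at 73.8 units, lay above this limit, and 1 of the 308 such spots was called well above background. With 46.4 units as the threshold in place of the call, a choice made after the data had been seen, 11512 of the 17450 protein-coding names passed.

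The label of the cells was compared with marker genes. All 8 epithelial markers were detected (EPCAM, CDH1, KRT8, KRT18, KRT19, CLDN3, CLDN4 and CLDN7). Of 8 colonic markers, CDX2, CDX1 and GPA33 were detected, and KRT20, VIL1, CDH17, LGALS4 and CEACAM5 were not well above background. GPA33, an antigen of the intestinal epithelium, had a dim signal of 21.3. Of 7 mesenchymal markers, VIM, ZEB1 and COL1A1 were detected. The array thus held the markers of an epithelial cell, while most defining products of a colonocyte were absent from the detected genes.

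All 22 genes of epithelial identity were detected, beside 71.9% of protein-coding names. Their median percentile was 92.6, against 74.1 for protein-coding names. Above the 90th percentile of the array were 14 of them, which is 63.6%, beside 19.7% of protein-coding names. KRT19, a keratin of simple epithelia, had a signal of 202585 and rank 17 among all gene names, next to ribosomal proteins. The other simple-epithelium keratins had signals of 102144 for KRT18, 29557 for KRT8 and 11187 for KRT7. The adhesion molecule EPCAM had a signal of 30570 and CDH1, which encodes E-cadherin, one of 3573. The tight junction gene CLDN4 reached 77020 at 1 probe, but its other probe read 12.8 and was not well above background. DSP and JUP, components of desmosomes, had signals of 12870 and 9346. Transcription and splicing factors that maintain the epithelial state were all detected, from GRHL2 at 248 to ELF3 at 3246. Every member of the list therefore stood clear of the dim range.

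Mesenchymal genes were detected for 8 of 20, below the share of protein-coding names. The intermediate filament gene VIM had a signal of 826, and the repressors of E-cadherin SNAI1 and ZEB1 had signals of 2163 and 415. COL1A1 was detected at 348, while COL1A2, which encodes its partner chain of type I collagen, was not well above background. Neither were CDH2, FN1, ZEB2, TWIST2, SPARC, COL3A1 and the fibroblast genes FAP, THY1, LUM, DCN and PDGFRB. TWIST1 was detected at 60.4 by 1 of its 4 probes. ACTA2 and TAGLN, contractile genes of smooth muscle and myofibroblasts, had signals of 315 and 118, and SNAI2, a relative of SNAI1, had 48.5. The detected members thus included 4 transcription factors, a filament gene, contractile genes and 1 collagen chain.

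Of 24 gut transcription factors 13 were detected, which is 54.2%, below the 71.9% of protein-coding names. CDX2, which specifies the intestine, had a signal of 1161. CDX1 had a signal of 202 at 1 of 3 probes. KLF5, SOX9 and GATA6, which act in crypt progenitors and the gut endoderm, had signals of 2391, 1481 and 889, and KLF4, a factor of differentiated cells, one of 637. HNF4A, a hepatocyte nuclear factor read by 1 probe, was not well above background, and neither were ASCL2, a factor of crypt stem cells, and ATOH1, which starts the secretory lineage. The intestinal factors were hence detected in part.

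Products of absorptive cells were detected for 7 of 30, the lowest share of the lists by the call. Above 46.4 units 5 of 30 remained, and the share of endothelial genes, 1 of 12, was lower. Surface enzymes and transporters that were not well above background were SI, ALPI, ANPEP, CA4, SLC26A3, SLC5A1 and SLC9A3, and so were the cytosolic proteins FABP1 and FABP2, which carry fatty acids, and CA1, a carbonic anhydrase. The carcinoembryonic antigen genes CEACAM5, CEACAM6 and CEACAM7 were not well above background either, and CEACAM1 was detected at 257 by 1 of 2 probes. CA2, a cytosolic carbonic anhydrase, had the highest signal of the list, 5546. The sulfate transporter SLC26A2 had a signal of 1240 and the peptidase DPP4 one of 394. For secretory cells 8 of 25 products were detected, between 29.4 and 270 units, and 5 of 25 remained above 46.4 units. The goblet cell mucin MUC2 had a signal of 67.9 at 2 of 4 probes, and FCGBP, another goblet cell product, had one of 116.4. The mucosal peptide TFF1 had 54.1, and the goblet cell products TFF3, SPINK4, CLCA1, AGR2 and ZG16 were not well above background. NEUROG3, which starts the endocrine lineage, had 270, and the secretory granule gene SCG5 had 107.6. The hormone gene GCG had a dim 29.4 at 1 of 2 probes, while CHGA, CHGB, NEUROD1, INSM1 and PYY were not well above background. Differentiated products of both kinds were thus the least detected genes of the lineage lists.

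Genes of the crypt base and of Wnt target programs were detected for 16 of 20, which is 80.0%, beside 71.9% of protein-coding names. RNF43 and ZNRF3, which remove Wnt receptors from the surface, had signals of 6017 and 2725, and CD44, a Wnt target and adhesion receptor, one of 20572 at its brighter probe and 326 at the other. AXIN2, a feedback inhibitor of Wnt signaling, was at 384, EPHB2 at 486 and MYB at 715, the last at 1 of 2 probes. LGR5, OLFM4 and SMOC2, which mark the cycling stem cell of the crypt, were not well above background, and neither was ALDH1A1. Other genes used as markers of stem or progenitor cells were detected, with signals of 2426 for ALCAM, 1798 for BMI1, 465 for MEX3A, 410 for LRIG1, 263 for MSI1 and 237 for PROM1. Stem cell markers were therefore detected in part.

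**Figure D1:**
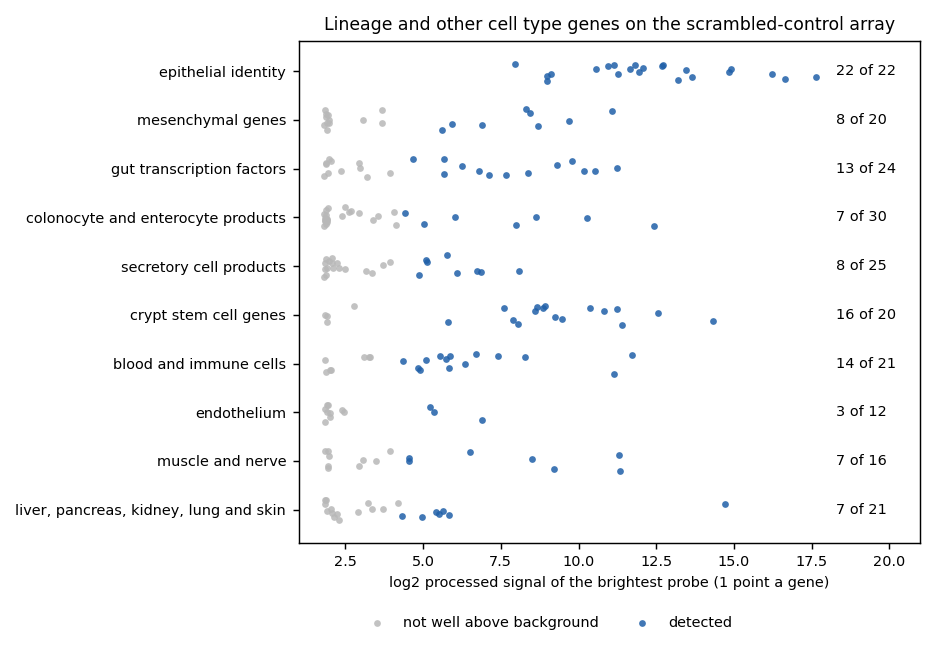
Log2 processed signal of the brightest probe for each gene of the lineage lists and of the other cell type lists, 1 point a gene with vertical jitter, blue where detected and grey where not well above background. The numbers at the right give detected genes of measured genes. All 22 epithelial identity genes are blue, whereas 23 of 30 colonocyte and enterocyte products are grey.

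Genes of other cell types were detected for 31 of 70, which is 44.3%, beside 71.9% of protein-coding names. Above 46.4 units only 18 of 70 remained, which is 25.7%, beside 11512 of the 17450 protein-coding names. Blood and immune genes were detected for 14 of 21 by the call and for 9 of 21 above 46.4 units. PTPRC, the common leukocyte antigen, had 46.3 at the brightest of its 5 probes, CD3D had 58.1 and CD14 had 53.2. HBB, CD3E, CD3G, CD2, MS4A1, NKG7 and GNLY were not well above background. CD4 and CD79A were brighter than the rest of the list. CD4 read 3360 at 1 probe and was not well above background at the other, and CD79A read 2268 at its only probe. Endothelial genes were detected for 3 of 12, all between 36.9 and 118 units, and PECAM1, KDR, FLT1 and TEK were not well above background. Muscle and nerve genes were detected for 7 of 16. TNNI3, a cardiac troponin, read 2500 and MBP, a myelin gene, read 2558 with 2 of 3 probes detected. DES read 592, RBFOX3 read 360 with 2 of 2 probes detected and SNAP25 read 90.2, while MYOG and TNNT2 were dim at 23.2. MYOD1, CKM, GFAP and OLIG2 were not well above background. Genes of the liver and other organs were detected for 7 of 21. KRT10 read 26974, the other detected members read 57.5 or less, and ALB, TTR, APOB and INS were not well above background. The array read bulk RNA from a culture of 1 cell line, so RNA spread over all cells and RNA of a few cells cannot be told apart. Whether these probes cross-react was not tested, and neither was the source of these signals.

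Cancer genes of all kinds, with the often methylated genes and cancer-testis antigens below, were detected for 128 of 177. This is 72.3%, near the 71.9% of protein-coding names. All 30 colorectal cancer driver genes were detected. The β-catenin gene CTNNB1 had a signal of 13014, the Ras genes HRAS and NRAS had signals of 2152 and 1052, and PIK3CA had one of 542. CDKN1A, a brake on cyclin-dependent kinases, had a signal of 636. APC, the scaffold that holds β-catenin down, read 331 at 1 probe and was not well above background at the other. In the TGF-β family, which restrains growth of the colonic epithelium, SMAD3, SMAD4 and TGFBR2 had signals of 7284, 3251 and 2747, while TGFBR1, ACVR1B and BMPR2 had signals of 70.9, 53.0 and 81.4. The RNA of genes known to be mutated in this line was thus detected for CTNNB1, PIK3CA and TGFBR2.

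Proto-oncogenes were detected for 37 of 41, which is 90.2%, beside 71.9% of protein-coding names. MYC had a signal of 22002 at 1 probe and was not well above background at the other. MYCL had 686, also at 1 of 2 probes, and MYCN was not well above background. The cell cycle drivers CCND1, CCNE1, CDK4 and CDK6 had signals of 4960, 8346, 8418 and 6621, and CCND2 was not well above background. PIM3, a survival kinase, had a signal of 27937. The apoptosis inhibitors MCL1, BCL2L1 and BCL2 had signals of 2481, 946 and 58.3. TERT, the catalytic subunit of telomerase, was detected at 357. The embryonic RNA-binding genes LIN28A and LIN28B were not well above background.

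Of 32 tumor suppressors 29 were detected, all but WT1, DCC and TP63, which is 90.6% beside 71.9% of protein-coding names. RB1 had a signal of 5058, NF2 one of 17949 and SMARCA4 one of 14026, at percentile 97.2 of the array, read by a probe at chr19:11172673-11172732 (hg19). SMARCA2, which encodes the alternative ATPase of the SWI/SNF complex, had a signal of 114 at the brighter of 2 detected probes. Of the kinase inhibitors, CDKN2A had 9109 and 1768 at its 2 probes, CDKN2D had 9215, CDKN1C had 8717, and CDKN2B, the neighbor of CDKN2A, had a dim 24.5. CDKN2A gives rise to more than 1 protein, and which transcripts the probes read was not tested. PRMT1 had a signal of 7683 at percentile 95.4. EGFR and TNS4, an adhesion adaptor, which the study examined as targets, had signals of 1087 and 4029, and the 3 probes of EGFR read 1087, 100.5 and 33.4. The probe at 100.5 was the only single-spot probe for which the deposited series table gave another value, 11.3, and the cause was not tested.

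Genes that are often methylated in colorectal cancer were detected for 15 of 39, against 71.9% of protein-coding names. The secreted Wnt inhibitors SFRP1, SFRP2, SFRP4, SFRP5, WIF1, DKK2 and DKK3 were not well above background. DKK1 differed from them with a signal of 21204. CHFR, UCHL1, IRF8, SDC2, TFPI2, BMP3, EYA4, TMEFF2 and HIC1 were not well above background. SEPT9 was detected at 62742, IGF2 at 4586, RASSF2 at 2036, NDRG4 at 1120 and MGMT at 1025. The methylation of these genes was not measured here. Of the cancer-testis antigens, which normal adult tissues outside the testis seldom use, 17 of 35 were detected, 10 of them above 46.4 units. By the call their share was 48.6%, below that of protein-coding names. MAGEA6 had signals of 20254 and 1868 at its 2 probes, MAGEB2 one of 12676 and MAGEA12 one of 3821. MAGEA6 and MAGEA3 are nearly identical, so the probes may read both. ATAD2 and PBK, which are also genes of dividing cells, had signals of 10558 and 12282. The meiosis genes SYCP1, SYCP3, TEX15 and DMC1 were not well above background.

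DNA repair genes were detected for 108 of 111, which is 97.3%, beside 71.9% of protein-coding names. Their median percentile was 84.5, against 74.1 for protein-coding names. The 3 without detection were MSH4 and DMC1, both of meiosis, and the polymerase gene POLN. Of the 14 mismatch repair genes 13 were detected. MSH6 and MSH3, whose products recognize mismatches, had signals of 7938 and 169, with MSH6 detected at 2 of 3 probes. PMS2, which acts after a mismatch is recognized, had signals between 360 and 1858 at its 5 probes. The sliding clamp PCNA had a signal of 21457.

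Genes of base excision and direct reversal were all detected, 23 of 23. Their signals ran from LIG3 at 68.8, at 1 of 2 probes, to UNG at 15235, a glycosylase that removes uracil. The nucleotide excision list was detected for 20 of 20. The damage sensor genes DDB1 and DDB2 had signals of 16384 and 7471. DDB1 was not well above background at its other probe. ERCC5 was detected at 1540 by 1 of 4 probes. End joining was detected for 13 of 13. XRCC6, which encodes the Ku70 subunit, had a signal of 145732, its partner XRCC5 one of 7868 at 1 of 2 probes, and LIG4 a dim 34.4. For damage signaling and homologous recombination 30 of 31 genes were detected, with signals of 200 for ATM and 1875 for ATR, of 1363 for BRCA1 and 75.2 for BRCA2, and of 38183 for XRCC3. Translesion synthesis, in which tolerant polymerases copy damaged DNA, was detected for 9 of 10. KIAA0101, which encodes a partner of PCNA, had a signal of 20808, and the polymerase genes POLI, REV3L, POLH and POLK had 1110, 1004, 643 and 624. RECQL4, a helicase, had signals from 89.5 to 17625 at its 4 probes.

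The share of detected genes is shown for every list beside the shares of all gene names and of protein-coding names.

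**Figure D2:**
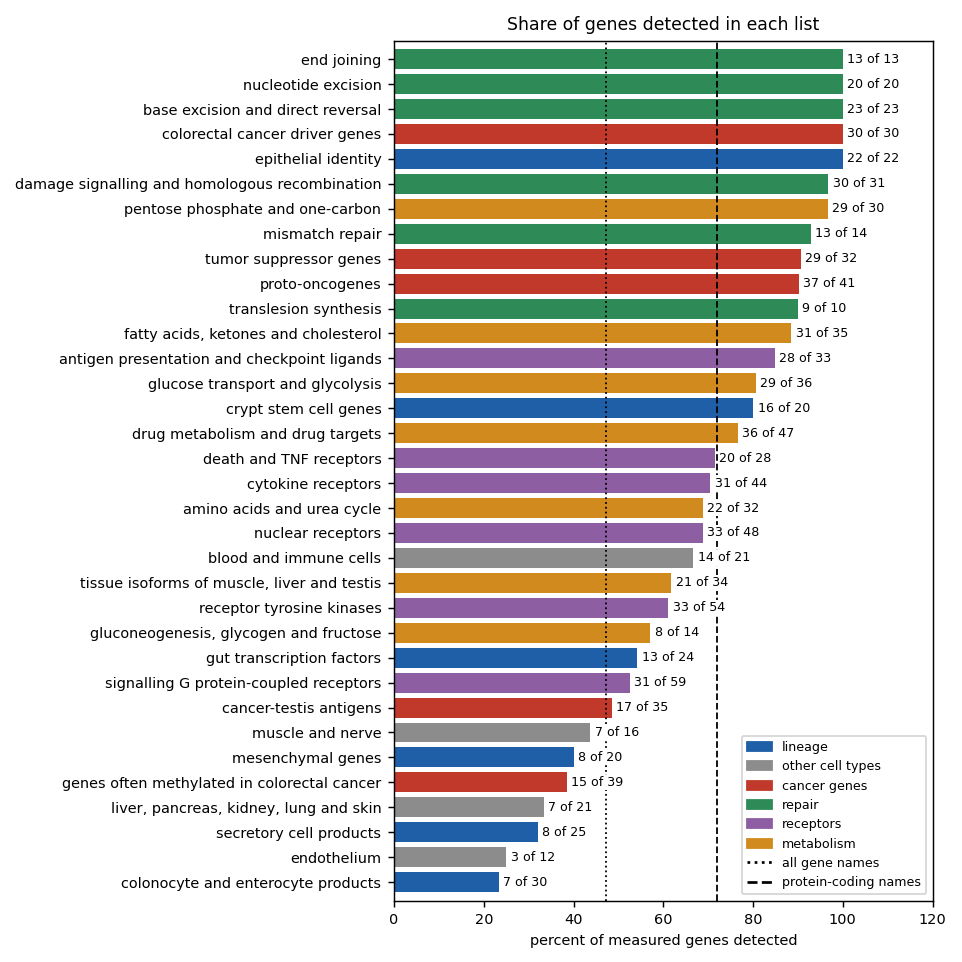
Percent of the measured genes that were detected in each of 34 lists, with detected of measured genes beside each bar and colors for the category. The dotted line is the share of all gene names, 47.3%, and the dashed line that of RefSeq protein-coding names, 71.9%. The repair lists lie in the upper part of the plot, all right of the dashed line, and colonocyte and enterocyte products, endothelium and secretory cell products lie at the bottom.

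Receptor genes were detected for 176 of 266, which is 66.2% and below the share of protein-coding names, with a median percentile of 67.9. Receptor tyrosine kinases were detected for 33 of 54, which is 61.1%, beside 71.9% of protein-coding names. MET, the receptor of hepatocyte growth factor, had a signal of 38279 at percentile 98.9, and its relative MST1R one of 1369. In the ERBB family ERBB2 had 2092, EGFR 1087, ERBB3 405 and ERBB4 a dim 25.0. RYK and ROR2, which bind Wnt ligands, had signals of 8395 and 739, and AXL, a receptor of GAS6, had 4345. The FGF receptors FGFR3, FGFR1, FGFR2 and FGFR4 had signals of 2614, 1509, 911 and 150. The PDGF receptor genes PDGFRA and PDGFRB and the vascular receptor genes KDR, FLT1, FLT4, TEK and TIE1 were not well above background, and neither were KIT, NTRK2, NTRK3, ALK and ROS1. Receptors best known from other cells were also detected, with signals of 246 for RET, 239 for ROR1, 186 for EPHA4, 170.5 for CSF1R, 123 for MUSK and a dim 25.5 for FLT3.

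Nuclear receptors, which are transcription factors bound by steroids, retinoids, lipids and other ligands, were detected for 33 of 48. Their share of 68.8% was near the 71.9% of protein-coding names. The orphan receptors NR2F6 and NR2F2 had signals of 29160 and 12366. ESRRA and THRA had signals of 5885 and 5505, and the fatty acid sensors PPARD and PPARG had 4234 and 2053. The vitamin D receptor VDR had 1680, and CYP24A1, the enzyme that breaks down vitamin D, had 1110. The sex steroid receptors PGR and ESR2 were not well above background, and ESR1 had a dim 18.8 at 1 of 3 probes. The bile acid receptor NR1H4, the xenobiotic receptors NR1I2 and NR1I3, and RARB were not well above background. The glucocorticoid receptor NR3C1 was detected at all 3 probes, with 1012 at the brightest.

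Death receptors and their relatives were detected for 20 of 28, which is 71.4%, near the 71.9% of protein-coding names. TNFRSF12A, the receptor of TWEAK, had a signal of 16267, and the TRAIL receptors TNFRSF10B and TNFRSF10A had 8556 and 825. The decoys TNFRSF10D and TNFRSF6B had 6160 and 5751, and FAS had 727. Receptors known from lymphocytes were divided. TNFRSF13B, TNFRSF17, TNFRSF9 and CD27 were not well above background, while TNFRSF25 had 2817, TNFRSF18 had 588, TNFRSF14 had 174 at 1 of 4 probes, TNFRSF13C had 71.0, and TNFRSF8 and TNFRSF4 were dim at 40.2 and 29.5. Cytokine receptors were detected for 31 of 44, which is 70.5%, near the 71.9% of protein-coding names. IL4R and IL13RA1, which bind interleukins of type 2 immunity, had signals of 9468 and 4939, and the interferon receptor genes IFNGR1, IFNGR2, IFNAR2 and IFNAR1 had 2843, 1152, 2024 and 432. IL6ST, the shared signal chain of the interleukin-6 family, was detected at all 7 probes, between 33.4 and 573, while IL6R had 46.5 at 1 of 2. LEPR read 30257 at its brightest probe and 93.3 at the dimmer of the 2 others detected, and its last probe was not well above background. LEPR overlaps the gene LEPROT, and which of them the bright probe reads was not tested.

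G protein-coupled receptors were detected for 31 of 59, which is 52.5%, beside 71.9% of protein-coding names. F2RL1, a receptor cut open by trypsin-like proteases, had a signal of 16145, NTSR1, the neurotensin receptor, had 9097 and ADORA2B, an adenosine receptor, had 8089. The adhesion receptors GPR56 and CD97 had 5573 and 5581. CXCR4 had 596, CCR6 had 214 and CXCR3 had 111 at 1 of 2 probes, whereas CXCR1, CXCR2, CCR1, CCR2, CCR7, CCR9 and ACKR3 were not well above background. The prostaglandin E2 receptors PTGER4 and PTGER2 had 569 and 60.4, with PTGER1 and PTGER3 not well above background. The short-chain fatty acid receptors FFAR2 and FFAR3 of the colon were not well above background.

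Antigen presentation and ligands of immune cells were detected for 28 of 33, which is 84.8%, beside 71.9% of protein-coding names. Above the 90th percentile were 14 of the 33, which is 42.4%, beside 19.7% of protein-coding names. HLA-C and HLA-E had signals of 43444 and 84558, B2M had 22964 and the peptide pump TAP1 had 5256. The probe of HLA-G read 54010, but class I genes are close copies and cross-reaction was not tested. CIITA, the master regulator of class II genes, and CD74, the invariant chain, were not well above background, and neither was HLA-DQA1, while HLA-DRA read 78.9 and HLA-DRB1 read 488. The ligands of the natural killer receptor NKG2D, MICA, MICB and ULBP1, had signals of 11203, 8105 and 1283. CD274, which encodes PD-L1, was dim at 38.7 and detected by 1 of 2 probes, PDCD1LG2 was not well above background, CD276 had 9991 and CD47, a signal against phagocytosis, had 3214. RNA of class I presentation genes was thus detected throughout and that of class II genes in part.

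Metabolic genes were detected for 175 of 227, which is 77.1%, beside 71.9% of protein-coding names. Their median percentile was 83.0, against 74.1 for protein-coding names. Above the 90th percentile were 86 of the 227, which is 37.9%, beside 19.7% of protein-coding names. Every step of glycolysis from glucose entry to lactate export had at least 1 detected gene. The glucose transporter SLC2A1 had a signal of 16976, the hexokinases HK2 and HK1 had 8147 and 2847, GPI had 94980, PFKP had 34481, ALDOA had 40601, TPI1 had 44424, GAPDH had 110161, PGK1 had 51570, ENO1 had 33634 and PKM had 28539. LDHB and LDHA, which interconvert pyruvate and lactate, had signals of 111540 and 79500, and the lactate exporter SLC16A3 had 72743. HK2 was not well above background at its other probe. The 7 genes of this list without detection included SLC2A2, SLC5A1, HK3, GAPDHS, PGK2 and PKLR. These are isoforms of the liver, kidney, intestine, blood cells and testis. Other forms known from few tissues were detected at low signals, with 62.6 for SLC2A4, 64.2 for LDHC and a dim signal of 42.3 for PGAM2.

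Other enzymes and subunits with tissue isoforms were detected for 21 of 34 members, which is 61.8%, beside 71.9% of protein-coding names. CKB was detected at 8634 and the muscle form CKM was not well above background. The common subunits of cytochrome oxidase COX4I1, COX6A1 and COX7A2 had signals of 43318, 107853 and 74612, while the partners COX4I2, COX6A2 and COX7A1 were not well above background. PDHA1 had 17331 and its testis copy PDHA2 was not well above background. PGAM4, a copy of PGAM1, read 36428, and which of the copies its probe reads was not tested. Of the fatty acid carriers FABP5 had 22029 and FABP6, the ileal form, had 951, while FABP3, FABP4 and FABP7 were not well above background.

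**Figure D3:**
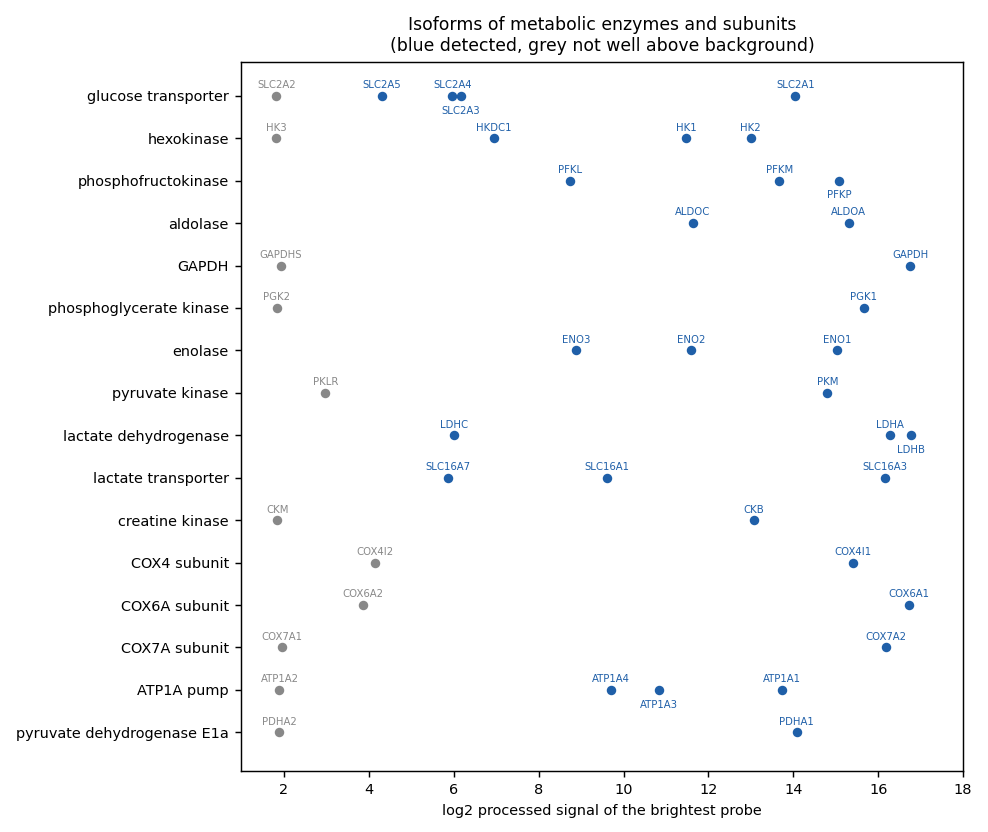
Log2 processed signal of the brightest probe for selected isoforms of metabolic enzymes and subunits, 1 row a function, blue where detected and grey where not well above background. Most rows hold a grey isoform, as PKLR beside PKM with its signal of 28539, and each row holds at least 1 blue one.

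Gluconeogenesis, glycogen and fructose genes were detected for 8 of 14, which is 57.1%, beside 71.9% of protein-coding names. At the steps of glucose synthesis that glycolysis cannot reverse, PC had 1080, G6PC3 had 269 and PCK2 had 137, while PCK1, FBP1, FBP2 and G6PC were not well above background. PYGL, a glycogen phosphorylase, had 14100. In the pentose phosphate pathway and one-carbon metabolism 29 of 30 genes were detected, which is 96.7%. TKT and TALDO1 of the non-oxidative branch had signals of 49259 and 31818. The serine synthesis enzymes PSPH, PSAT1 and PHGDH had 10810, 8524 and 2700, and the mitochondrial folate enzymes SHMT2 and MTHFD2 had 15094 and 14939. BHMT of the liver was not well above background. RNA of each of these serine synthesis and mitochondrial folate enzymes was thus detected, and their activity was not measured.

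Amino acid and urea cycle genes were detected for 22 of 32, which is 68.8%, near the 71.9% of protein-coding names. PYCR1, which makes proline, GOT2, an aminotransferase, ODC1, the first enzyme of polyamine synthesis, and ASNS, asparagine synthetase, had signals of 36421, 29737, 29392 and 18681. GLS2, a glutaminase, was not well above background. CPS1, the mitochondrial enzyme that opens the urea cycle, had 1871, ASS1 and ASL had 3018 and 1304 and ARG2 had 455, whereas OTC and ARG1 were not well above background. Of the branched-chain aminotransferases BCAT2 had 3526 and BCAT1 was not well above background. IDO1 and TDO2, which break down tryptophan, were not well above background. Lipid genes were detected for 31 of 35, which is 88.6%. FASN, ACACA and ACLY of fatty acid synthesis had 15990, 11007 and 3184, SQLE of cholesterol synthesis had 8099, and OXCT1 of ketone use had 2768.

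Genes of drug handling were detected for 36 of 47, which is 76.6%, beside 71.9% of protein-coding names. CYP2W1, a cytochrome P450 of fetal gut and of colorectal tumors, had a signal of 131882 at its only probe. Of the P450 genes best known from the liver, CYP1A2 had 69.4, CYP2B6 had 53.3, CYP2D6 had a dim 40.2 and CYP3A5 a dim 30.5, while CYP3A4, CYP2C8, CYP2C19 and CYP2E1 were not well above background. GSTP1, a glutathione transferase, had 128539 and GSTM1 had 76.1, while GSTT1 and GSTM3 were not well above background. Of the targets and activators of fluoropyrimidines, TYMS had a signal of 38882, TYMP 41366, UMPS 7341 and TK1 121861. UPP1 was detected as well, while UPP2 was not well above background. DPYD, which degrades these drugs, had 102 at 1 of 2 probes. TOP1, the target of irinotecan, had 3823. The efflux pump ABCB1 had 70.7, ABCC1 had 943, and ABCG2 was not well above background.

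Promoter sequence was set beside detection, since genes used by most cells are known to start in stretches rich in the dinucleotide CG. The 250 bases before the annotated start were read from the RefSeq promoter table (GRCh38.p14), with the first listed start per symbol, which matched 13988 of 17450 protein-coding names, or 80.2%. Of 6269 genes with 20 or more CG in this window 87.7% were detected, of 3523 with 10 to 19 CG 82.3%, of 1468 with 5 to 9 CG 57.6% and of 2728 with 0 to 4 CG 36.6%. The median was 20 CG for detected and 5 for other genes. The letters TATAAA, searched on both strands, were held by 11.1% of all 27305 promoters in the table. Detection was 49.0% among 1242 protein-coding genes with TATAAA and 75.6% among 12746 without it. This is a description over genes of 1 array, and genes are not independent replicates.

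Windows of 4 genes described above show both common combinations and both exceptions, with CG in capitals. MET (chr7:116671946-116672195, plus strand) holds 24 CG and was detected, FABP1 (chr2:88128063-88128312, minus strand) holds 4 CG and TATAAA and was not well above background. CLDN4 (chr7:73830746-73830995, plus strand) holds 4 CG and was detected at 77020 units, and WIF1 (chr12:65121306-65121555, minus strand) holds 27 CG and was not well above background.
MET: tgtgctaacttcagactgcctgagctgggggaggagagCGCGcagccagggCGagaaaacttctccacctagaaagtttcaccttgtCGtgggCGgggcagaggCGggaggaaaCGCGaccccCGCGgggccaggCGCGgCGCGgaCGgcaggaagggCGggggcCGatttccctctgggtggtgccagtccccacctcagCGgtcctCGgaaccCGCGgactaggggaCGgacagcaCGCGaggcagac
CLDN4: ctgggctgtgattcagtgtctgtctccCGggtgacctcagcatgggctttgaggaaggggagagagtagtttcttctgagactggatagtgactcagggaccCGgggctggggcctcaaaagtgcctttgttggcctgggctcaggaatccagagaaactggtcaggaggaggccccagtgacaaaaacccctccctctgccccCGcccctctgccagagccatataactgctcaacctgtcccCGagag
WIF1: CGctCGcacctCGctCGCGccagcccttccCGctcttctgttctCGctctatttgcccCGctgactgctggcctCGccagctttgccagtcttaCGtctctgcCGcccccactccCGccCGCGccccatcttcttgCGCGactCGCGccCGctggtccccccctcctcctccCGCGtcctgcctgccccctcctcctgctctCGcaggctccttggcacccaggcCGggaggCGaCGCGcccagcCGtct
FABP1: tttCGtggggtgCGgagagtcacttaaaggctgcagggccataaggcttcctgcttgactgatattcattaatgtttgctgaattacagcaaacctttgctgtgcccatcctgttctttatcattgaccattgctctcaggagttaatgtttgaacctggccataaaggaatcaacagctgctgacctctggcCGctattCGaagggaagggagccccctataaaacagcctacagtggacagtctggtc
The windows of MET and WIF1 differ little in CG number although only MET was detected.

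Among families of genes, the cytosolic ribosomal proteins held 55 of the 100 brightest protein-coding names, and 80 of 81 were detected. Ranks 1 and 2 belonged to a probe without a gene name and to SNAR-A3, a small noncoding RNA. RPS27, RPL13 and RPLP0 had ranks 3, 4 and 5 on the array, and EEF1A1, the elongation factor of translation, had rank 6. All of these ranks lie closer than the spread between probes, so they are not read as an order. All 77 mitochondrial ribosomal proteins and all 37 subunits of respiratory complex I were detected. HOX genes, which record position along the body axis, were detected for 27 of 39. Their share of 69.2% was near the 71.9% of protein-coding names. HOXA9 had a signal of 10454 with 4 of 4 probes detected, HOXB6 had 6034 and HOXA7 had 5164, while HOXB13 and HOXA13 of the hindgut end had 1336 and 594. In the HOXD group only HOXD8 and HOXD3 were detected, at 239 and 26.7.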

How the data were processed

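Total RNA of HCT116 cells was hybridised to 1-color Agilent arrays, and only the NC array was analysed, so its number limits the precision and no test was made. The authors deposited spot intensities from Agilent Feature Extraction 10.7.1.1 (per the labels), as processed signal with background subtracted, and other columns that are flags. No scaling between arrays was applied. Control spots and 83 outlier spots were left out, repeated spots of 300 probes were averaged, and the brightest probe stood for each gene name (R 4.3.3, limma 3.58.1 for the normexp alternative, Python 3.11.15, numpy 2.4.6, pandas 2.3.3, matplotlib 3.10.9). The deposited series table held intensities on the same scale as the processed signal, equal within 0.1% for 57899 of 57900 single-spot probes. Scripts were tested on simulated data. Members and lists were chosen with earlier results of these data known. Any list member could be named, preferring the brightest, those not well above background and those whose probes disagreed, with the 20 brightest names and the study's genes SMARCA4, PRMT1, TNS4 and EGFR. HOX, ribosomal and other families were added as families. Alternatives were another detection flag, thresholds from negative controls or olfactory receptors, normexp, all probes, and outliers kept. LYZ, CD68, HBA1, HPP1, MAGEA3, XAGE1A, SSX4, PAGE5, GTF2H2, UGT1A1, UGT2B17, SULT1A1 and GSTA1 were not analysed here. Some genes of the lists are counted but not reported here by name.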

Additional observations from a re-analysis of the deposited data

How the results depend on the processing

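Of 52 counts recomputed for all genes and the 6 groups of lists under other settings, 50 stayed within 1.5 times the reported count. The 2 that moved were genes of other cell types, 31 of 70 by the call, which became 48 with the less strict flag of positive and significant signal and 18 with the threshold at the 95th percentile of olfactory receptor genes, an alternative chosen after seeing the data. The counts of single lists were less stable. Of 238 recomputed, 15 moved by over 1.5 times, in 8 of the 34 lists, namely colonocyte and enterocyte products, secretory cell products, the 4 lists of other cell types, cancer-testis antigens and G protein-coupled receptors. Choosing the probe by normexp or by the series table, or keeping outlier spots, left the detection flag as it was. Such settings could hardly move a count, and none of the 34 lists moved with them, so they add little to these tallies. Colonocyte products went from 7 to 17 and secretory products from 8 to 15 of their lists with the less strict flag, and secretory products went to 5 at the olfactory receptor threshold. Of 213 recomputed gene percentiles 28 moved, 10 with the median over a gene's probes and 18 when ranked among detected genes only. All 71 percentiles recomputed with normexp stayed, and a gene with 1 probe cannot move with the median over probes. With every probe of a gene required to be detected, 40.6% of gene names and 63.3% of protein-coding names passed. Detection depended on how many probes a name had, from 67.2% of protein-coding names with 1 probe to 85.1% of those with 3 or more. No paired analysis was possible because 1 array was described and no groups were compared. Signals near the background, below 46.4 units, limit any statement on the dim genes.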

Other observations

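Integrin subunits, the receptors for the extracellular matrix, were detected for 17 of 26, which is 65.4%, beside 71.9% of protein-coding names. ITGB4 and ITGA6, which pair in hemidesmosomes, had signals of 16200 and 5780, and ITGA3 had 3473. Collagens were detected for 25 of 44, which is 56.8%, led by COL18A1 at 10253 and COL6A1 at 6321. Matrix metalloproteinases were detected for 9 of 23, which is 39.1%, with MMP15 highest at 1138.

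Secreted signals were detected less widely than the 71.9% of protein-coding names. Of 19 WNT ligands 11 were detected, with WNT16 at 3626, and of 22 fibroblast growth factors 8 were detected, none above 207. Interleukins were detected for 11 of 39, with IL18, a product of epithelia, at 4631, and chemokines for 13 of 38, with CCL24 at 2322 and CXCL16 at 1251. Interferon genes were detected for 3 of 17, the highest being IFNE at 96.7.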
